A study of Mus musculus with 6 samples.

Results

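The cytosolic ribosomal protein (RP) genes of the mouse hippocampus were followed here after chronic cerebral hypoperfusion. Members were selected by symbol, as Rpl or Rps followed by digits and an optional a, x, l or l1, together with Rpsa and Rplp0 to Rplp2, and without the pseudogenes that carry -ps in their symbol and the Rps6k kinases. This selection took 86 of 54752 counted genes, 53 of the large subunit and 33 of the small subunit. Of these, 82 are annotated as protein coding and 4 (Rps4l, Rps12l1, Rpl32l and Rpl6l) as processed pseudogenes. Bulk RNA-seq had been performed on the whole right hippocampus of 6 male wild-type C57BL/6 mice (C57BL/6 J in the methods), 1 library per mouse. In the 3 mice of the BCAS group both common carotid arteries were narrowed by microcoils, with the tighter coil on the right, the side that was sequenced (bilateral carotid artery stenosis, BCAS). The 3 mice of the Sham group had the same operation without coils. All were sampled 3 weeks after surgery, and the labels give a time of 14 weeks without saying from when it is counted.

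Each ribosome of the cytosol has a large subunit, which joins amino acids, and a small subunit, which reads the mRNA. Their proteins are made in near equal numbers from separate genes, most of them present as 1 active copy beside many silent processed pseudogenes. RP mRNAs belong to the TOP mRNAs, which start with a C followed by a run of C and T (U in the RNA) and whose translation depends on mTOR and on the binding protein Larp1. In the brain they are found in neurons, in their processes as well as their cell bodies, and in glia.

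The libraries held 29652456 to 35607098 counts, more in Sham (34301711 to 35607098) than in BCAS (29652456 to 31892083). Levels are given in TMM-normalized CPM, the usual unit of counts scaled to library size, and the TMM factors were 0.964 to 0.984 in Sham and 1.01 to 1.05 in BCAS. The groups also differed in marker genes of cell types. All 14 microglia and macrophage markers were higher in BCAS, and their summed level was 452 to 469 CPM in Sham and 3520 to 5820 CPM in BCAS. Of 9 pyramidal neuron markers 7 were lower (5760 to 5820 against 2570 to 3850 CPM), of 7 interneuron markers 5 were lower (885 to 991 against 583 to 682 CPM), and of 7 astrocyte markers 6 were higher (4380 to 4670 against 9370 to 9900 CPM). In bulk tissue, fewer cells of a type and less RNA per cell cannot be told apart, and the part of these shifts in the values below was not tested. Choroid plexus markers ran from 67.1 to 4040 CPM in Sham and from 45.1 to 5870 CPM in BCAS, T and B cell markers from 0.944 to 1.95 and from 4.68 to 6.16 CPM. Sham 1 had the lowest CPM of the 6 mice for 71 of the 82 tested RP genes, and BCAS 3 had the highest for 51.

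RP mRNAs were more abundant in BCAS mice. Of the 82 RP genes with enough counts to be tested, 49 (59.8%) were higher in BCAS and 0 lower at an adjusted P under 0.05 (edgeR), beside 18.0% of all 18617 tested genes higher and 13.2% lower. At an unadjusted P under 0.05, 66 were higher and 1, Rpl22l1, was lower. DESeq2 and limma-voom called 52 and 48 higher (18.6% and 17.9% of all tested genes) and 0 lower (15.7% and 13.5%). The changes were small and alike. The median log2 fold change was 0.31 (quartiles 0.21 and 0.41) beside 0.018 over all tested genes, and 57 of the 82 genes lay between 0.2 and 0.5. With a change beyond 1 on the log2 scale required as well, 0 RP genes passed with edgeR, DESeq2 or limma-voom, and 0 at an unadjusted P under 0.05, while 9.46% of all tested genes passed with edgeR. Every BCAS mouse lay above every Sham mouse for 70 RP genes (85.4%), beside 25.3% of all tested genes, and below every Sham mouse for 1, beside 22.7%. RP genes are abundant, and among genes with a mean of at least 50 CPM, 45 of 69 RP genes were higher, beside 14.3% of all 4788 genes of that level. With library totals as the scaling, 66 RP genes were higher and 0 lower (20.7% and 9.60% of all tested genes), and with an offset for gene length 36 were higher and 1 lower (15.2% and 20.4% of all tested genes). The count of calls fell to 24 without Sham 1 and to 31 without Sham 2, and was 41 to 47 without any 1 of the other mice. Of all tested genes, 12.9% were higher without Sham 1, 13.7% without Sham 2 and 13.2% to 18.6% without any 1 of the others. Under every tool, scaling, filter and choice of mice listed with the methods, the gene length offset and replicate block included, 20 RP genes were called. A scaling by the RP genes themselves, given further on, is not among these. How many of all tested genes were called under every setting was not counted. The replicate block and gene length offset together also called 20 RP genes, beside 12.6% of all tested genes higher and 14% lower.

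**Figure D1:**
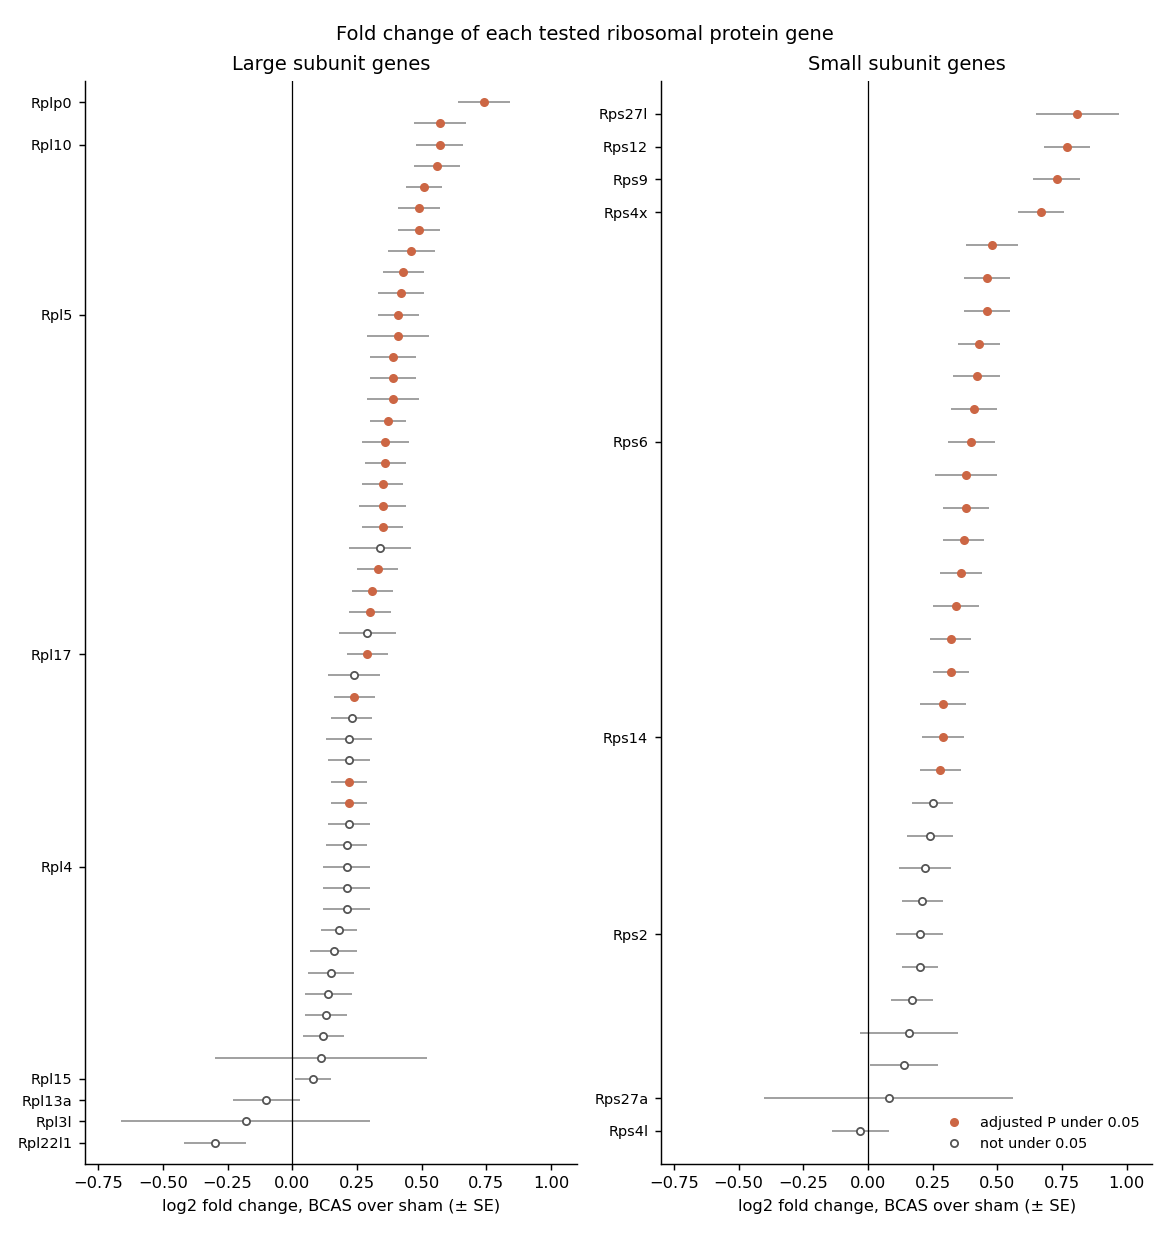
Log2 fold change (BCAS over Sham) of the 50 large and 32 small subunit genes that were tested, with the standard error as a line and a selection of genes named. Filled points have an adjusted P under 0.05; 78 of the 82 points lie above 0 and none lies above 1.

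Summed over all members, RP genes had 10826, 11675 and 12521 CPM in Sham 1 to 3 and 14224, 14602 and 15373 CPM in BCAS 1 to 3. The groups did not overlap, and the ratio of the means was 1.26. As a share of the deposited counts, before any scaling between libraries, RP genes took 1.06% to 1.21% in Sham and 1.45% to 1.62% in BCAS. The median log2 ratio of the tested RP genes to their Sham mean was -0.11, 0.00 and 0.10 in Sham 1 to 3 and 0.27, 0.32 and 0.37 in BCAS 1 to 3. The single genes were steady within a group, with a median coefficient of variation of 8.09% in Sham and 5.41% in BCAS.

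Both subunits were higher in BCAS. The large subunit sum was 6638.8, 7043.8 and 7559.5 CPM in Sham and 8510.8, 8853.7 and 9195.6 CPM in BCAS, a ratio of 1.25. For the small subunit it was 4187.5, 4631.5 and 4961.1 CPM in Sham and 5713.5, 5748.2 and 6177.1 CPM in BCAS, a ratio of 1.28. In both subunits all BCAS mice were above all Sham mice. The small to large ratio was 0.648 ± 0.0151 (SD, n = 3) in Sham and 0.664 ± 0.0129 (SD, n = 3) in BCAS, and its single values overlapped (0.631 to 0.658 against 0.649 to 0.672). Of 50 tested large subunit genes 28 were higher, with a median log2 fold change of 0.30, and of 32 small subunit genes 21 were higher, with a median of 0.33. These were 56.0% and 65.6% of the genes, beside 18.0% of all tested genes.

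**Figure D2:**
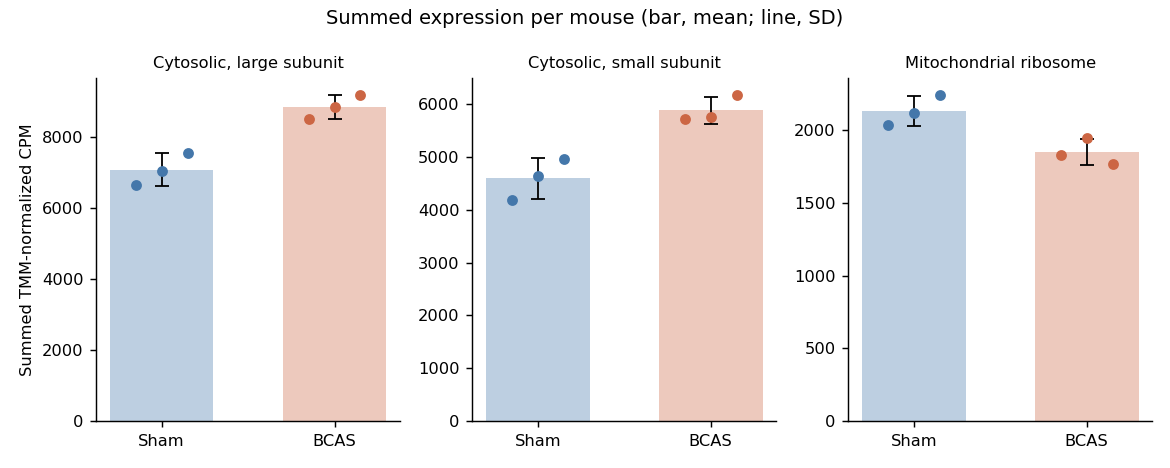
Summed TMM-normalized CPM of the cytosolic large subunit, cytosolic small subunit and mitochondrial ribosomal protein genes, with 1 point per mouse, the group mean as a bar and the SD as a line. The BCAS mice lie above the Sham mice in both cytosolic panels (ratios 1.25 and 1.28) and below them in the mitochondrial panel (0.867).

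In the small subunit the largest rises were those of Rps27l, Rps12, Rps9 and Rps4x. Rps12 (ENSMUSG00000061983.7, mm10 chr10:23785183-23787275, minus strand) encodes a protein of the small subunit beak. It had 83.7, 93.7 and 99.7 CPM in Sham and 151, 150 and 172 CPM in BCAS. The groups were far apart (log2 fold change 0.77 ± 0.09 SE, edgeR adjusted P = 0.000401), and no member had a lower adjusted P. Rps9 (ENSMUSG00000006333.14, mm10 chr7:3703993-3706897, plus strand), whose protein sits at the entry of the mRNA channel, had 171, 181 and 186 CPM in Sham and 282, 279 and 329 CPM in BCAS. Its groups were equally separate (0.73 ± 0.09 SE on the log2 scale, edgeR adjusted P = 0.000498). Rps4x (ENSMUSG00000031320.9, mm10 chrX:102184941-102189394, minus strand), the X-linked gene of the small subunit protein S4, had 218, 239 and 256 CPM in Sham and 361, 371 and 400 CPM in BCAS. No BCAS mouse came near the Sham range, with a difference of 0.67 ± 0.09 SE on the log2 scale (edgeR adjusted P = 0.000756). Rps27l is described with the paralogs.

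The small subunit members with the most mRNA per kilobase of exon, Rps4x aside, had smaller changes. Over all mice the 5 highest members were Rps15, Rps2, Rps4x, Rps6 and Rps14. In Sham mice their levels in CPM per kilobase were 339 ± 26.6 for Rps15 (SD, n = 3), 180 ± 17.1 for Rps2, 161 ± 9.43 for Rps6, 149 ± 10.6 for Rps14 and 146 ± 11.8 for Rps4x, and after Rps15 each differed from the next by less than the sum of their SDs. Rps6, the S6 kinase substrate, had 238, 258 and 268 CPM in Sham and 321, 319 and 368 CPM in BCAS. It rose without overlap, by 0.40 on the log2 scale (edgeR adjusted P = 0.0102), and was not called without Sham 1 or with the replicate block and gene length offset together. Rps14, of the platform, rose by 0.29 (edgeR adjusted P = 0.0206), a call that was lost without Sham 1, Sham 2 or BCAS 1 and with the gene length offset, alone or with the replicate block (highest adjusted P over the alternatives listed with the methods 0.144). Rps2, which lines the mRNA entry, had a log2 fold change of 0.20 (edgeR adjusted P = 0.117) and Rps15, near the decoding site, of 0.17 (0.139), both without overlap of the groups. With library totals both passed (0.031 and 0.033). The smallest small subunit values with at least 1 CPM were those of Rps15, Rps10 (0.16, adjusted P = 0.569), Rps21 (0.14, 0.444), Rps27a (0.08, 0.920) and Rps4l (-0.03, 0.848).

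Among the largest rises in the large subunit were those of Rplp0, Rpl10, Rpl10a and Rpl18. Rplp0 (ENSMUSG00000067274.10, mm10 chr5:115559467-115563727, plus strand), which anchors the acidic stalk where elongation factors dock, had 253, 254 and 269 CPM in Sham and 395, 410 and 491 CPM in BCAS. The Sham mice were close together and all BCAS mice were far above them (log2 fold change 0.74 ± 0.10 SE, edgeR adjusted P = 0.000818). The other stalk genes moved less, Rplp2 by 0.42 (edgeR adjusted P = 0.0104, and 0.0652 with the replicate block and gene length offset together) and Rplp1 by 0.24, which did not pass (0.102). Rplp1 passed with library totals (0.0327) and without Sham 3 (0.0493). Rpl10 (ENSMUSG00000008682.13, mm10 chrX:74270812-74273135, plus strand), whose protein joins late in the maturation of the large subunit, had 234, 226 and 260 CPM in Sham and 341, 348 and 378 CPM in BCAS. Its groups did not overlap (0.57 ± 0.09 SE on the log2 scale, edgeR adjusted P = 0.0016). Rpl10a, of the L1 stalk, rose by 0.56 (adjusted P = 0.00229) and Rpl18 by 0.51 (0.00139), both without overlap. Rpl5 and Rpl11, which bind the 5S rRNA and were chosen after their values were seen, rose by 0.41 (adjusted P = 0.00512) and 0.46 (0.00482), and Rpl5 was not called with the replicate block and gene length offset together (0.0579).

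The large subunit members with the most mRNA per kilobase over all mice were Rplp1, Rpl4, Rpl17, Rpl8 and Rplp0. Rplp1 had 673 ± 80.2 CPM per kilobase in Sham (SD, n = 3), beyond the spread of Rpl4 (278 ± 12.8), and Rpl8 (213 ± 14.1) and Rpl17 (209 ± 11.9) did not differ beyond theirs. Rplp0 went from 156 ± 5.34 in Sham to 260 ± 31.1 CPM per kilobase in BCAS (SD, n = 3 each), where it reached the level of Rpl17 (255 ± 14.7). Rpl4, which narrows the exit tunnel, had 530, 567 and 580 CPM in Sham and 628, 633 and 674 CPM in BCAS. The groups did not overlap, yet its log2 fold change of 0.21 did not pass (edgeR adjusted P = 0.110). It passed with DESeq2 (0.049) and with library totals (0.0323). Rpl8, near the catalytic centre, had 0.23 (0.0617) and also passed with DESeq2 (0.0404) and with library totals (0.0164). Rpl17, at the tunnel, rose by 0.29 (0.0227), a call lost without Sham 1 or Sham 2 and with the gene length offset, alone or with the replicate block (highest adjusted P over the same alternatives 0.150). The smallest large subunit values with at least 1 CPM were those of Rpl31 (0.13, adjusted P = 0.274), Rpl37 (0.12, 0.288), Rpl15 (0.08, 0.427), Rpl13a (-0.10, 0.594) and Rpl22l1 (-0.30, 0.0906). Rpl15 had 189, 201 and 210 CPM in Sham and 210, 214 and 212 CPM in BCAS, so the highest Sham mouse and the lowest BCAS mouse nearly met. Rpl13a, whose protein is known to leave the ribosome and silence inflammatory mRNAs in interferon-treated myeloid cells, had 13.2, 12.9 and 12.8 CPM in Sham and 10.3, 13.9 and 12 CPM in BCAS, with full overlap.

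**Figure D3:**
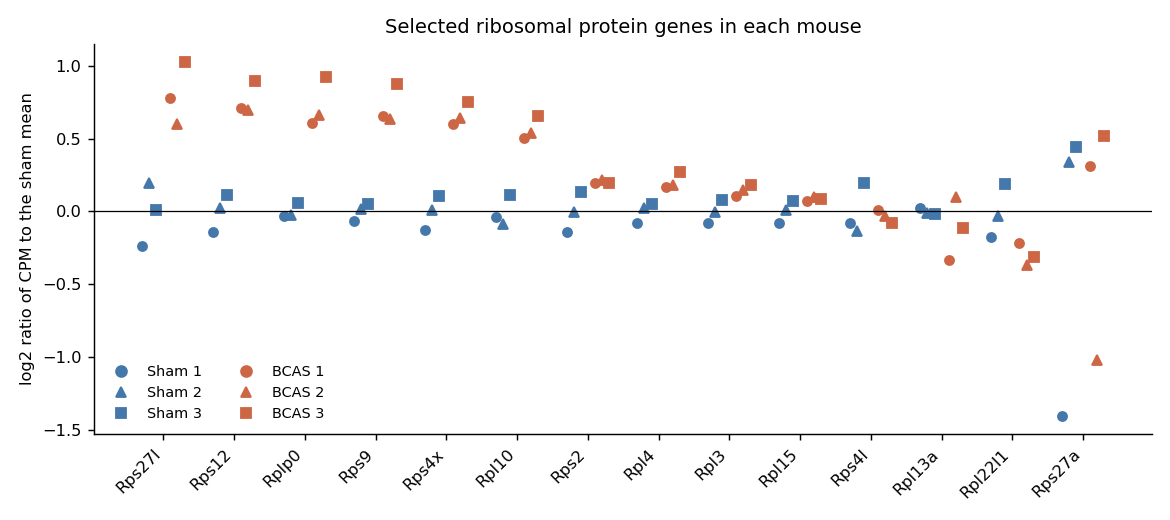
Log2 ratio of the CPM of 14 RP genes to their Sham mean in each of the 6 mice, with Sham in blue and BCAS in orange. Rps27l to Rpl10 show BCAS mice well above Sham mice, Rpl15 shows groups that nearly meet, Rpl22l1 shows BCAS mice below Sham mice, and Rps27a shows a low mouse in each group.

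The transcription starts of the RP genes were searched for the C and T runs of TOP mRNAs. In RefSeq promoter sequences (GRCm38.p6), available for 63 members, a run of at least 8 bases that are each C or T, on the strand of the gene and touching the bases from 5 before to 10 after the annotated start, was found in 27 (42.9%). It was found in 13.4% of all 27025 genes with such a sequence and in 10.1% of 69 mitochondrial ribosomal protein genes. With the search widened to 50 bases after the start, the shares were 73.0%, 25.0% and 18.8%. For a gene with several annotated starts, the longest run at any of them was taken, in members and other genes alike. A run that ends before the start was counted too, though it would not be in the mRNA. The windows below run from 10 bases before to 20 bases from the start and are shown for members with large and with small fold changes and for Fau and Rack1, a selection made after the values were seen. Capitals mark the longest C and T run in the searched stretch.
Rps27l, chr9:66946076-66946105: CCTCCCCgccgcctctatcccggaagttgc
Rps12, chr10:23787190-23787219: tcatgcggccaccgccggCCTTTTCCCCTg
Rplp0, chr5:115559457-115559486: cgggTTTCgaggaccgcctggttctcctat
Rps9, chr7:3704031-3704060: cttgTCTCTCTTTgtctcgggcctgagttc
Rps4x, chrX:102189372-102189401: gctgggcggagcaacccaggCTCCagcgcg
Rpl10, chrX:74270806-74270835: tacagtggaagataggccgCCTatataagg
Rpl18, chr7:45718061-45718090: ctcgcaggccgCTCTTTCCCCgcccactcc
Rpl15, chr14:18270967-18270996: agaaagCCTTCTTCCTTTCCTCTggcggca
Rpl13a, chr7:45128726-45128755: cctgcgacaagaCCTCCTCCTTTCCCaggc
Rpl22l1, chr3:28805498-28805527: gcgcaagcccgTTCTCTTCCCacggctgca
Fau, chr19:6057937-6057966: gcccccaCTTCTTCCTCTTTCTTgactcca
Rack1, chr11:48800350-48800379: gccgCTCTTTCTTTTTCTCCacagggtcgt
Long and short runs stood among members with large and with small fold changes. The run of Rps27l, of 9 bases, begins before its window and ends before the annotated start, and that of Rpl10 has 3 bases. Rpl15, with a run of 17 bases, and Rpl13a, with 14, had among the smallest log2 fold changes (0.08 and -0.10), and Rplp0 and Rps4x, with 4 bases each, had among the largest (0.74 and 0.67). Over all tested members with a sequence, the median log2 fold change was 0.35 for 26 with a run of at least 8 bases and 0.31 for 34 with a shorter run. Annotated starts can lie several bases from the start used in these cells. A short run says only that no longer run touches the searched bases, from 5 before to 10 after the annotated start. Longer runs can follow, as in Rplp0, where the wider search found 7 bases.

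The RP genes were also set against their own common shift. For this, the summed counts of the tested RP genes were taken as the library size, a scaling added after the data were seen. It set the median of the RP genes to -0.03 and moved the median of all tested genes to -0.32. On this scale 5 RP genes (6.1%) were higher in BCAS, beside 10.2% of all tested genes, and 3 (3.66%) were lower, beside 38.6%. These shares follow from the scaling, which centres the RP genes, and are no result about the RP genes as a set. The 5 were Rps27l (log2 difference 0.47), Rps12 (0.44), Rplp0 (0.40), Rps9 (0.39) and Rps4x (0.33), with edgeR adjusted P from 0.00348 to 0.032. The 3 were Rpl22l1 (-0.63, adjusted P = 0.00216), Rpl13a (-0.44, 0.0298) and Rps4l (-0.36, 0.0268). These genes were also among the extremes by which genes were named above, so the scale gives no independent support for them.

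The paralogs ranged from the largest log2 fold change of all members to the smallest. Rps27l (ENSMUSG00000036781.13, mm10 chr9:66946086-66949516, plus strand), a paralog of Rps27 known as a target of p53, had 5.99, 8.08 and 7.11 CPM in Sham and 12.1, 10.7 and 14.4 CPM in BCAS. The groups were apart, and it had the largest rise of all members (0.81 ± 0.16 SE on the log2 scale, edgeR adjusted P = 0.00666). Rps27 itself rose by 0.29 on the log2 scale (edgeR adjusted P = 0.0331), a call that was lost without any 1 of 5 mice, BCAS 3 being the exception, with the gene length offset and with the replicate block (highest adjusted P over the alternatives listed with the methods 0.116). Rpl22l1 (ENSMUSG00000039221.10, mm10 chr3:28805436-28807424, plus strand), which can take the place of Rpl22 in the large subunit, had 17.7, 19.6 and 22.8 CPM in Sham and 17.2, 15.5 and 16.1 CPM in BCAS. It was the sole RP gene with all BCAS mice below all Sham mice, by a narrow gap, and its value of -0.30 ± 0.12 SE did not pass (edgeR adjusted P = 0.0906). It passed with an offset for gene length (0.0285), though not with the replicate block added to it (0.0741), and, as given above, with the summed RP counts as library size (0.00216), and its adjusted P was at most 0.27 over all alternatives. Rpl22 had a log2 fold change of 0.22 (0.0658).

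Shares within a pair need no scaling between libraries. Their level is uncertain, since reads that fit several genes were not counted and the genes of a pair differ in this. Of its stretches of 100 bases, Rps27 shares 40.1% with other genes and Rps27l 0.0%, and Rps4x 34.8% and Rps4l 1.66%. Rpl22l1 shares 34.3% and Rpl22 0.0%, and Rpl7 26.0% and Rpl7l1 1.36%. The share of Rpl22l1 in the reads per kilobase of Rpl22l1 and Rpl22 was 21.8%, 22.7% and 24.2% in Sham and 17.0%, 17.3% and 17.3% in BCAS. That of Rps4l with Rps4x was 16.4%, 14.7% and 16.8% in Sham and 11.2%, 10.7% and 9.63% in BCAS, and that of Rps27l with Rps27 was 15.1%, 17.0% and 15% in Sham and 20.8%, 18.0% and 24.4% in BCAS. The groups did not overlap in these 3 pairs, nor for Rpl7l1 with Rpl7 (11.5% ± 0.376 against 10.3% ± 0.461, SD, n = 3 each; exact permutation test, two-sided, P = 0.1). Each of the 4 had P = 0.1 in the exact permutation test, which is the smallest that 3 against 3 mice allow, so none can pass 0.05 (Benjamini-Hochberg adjusted P = 0.15 over the 6 pairs with counts). For Rps4l the counts were steady (24.7, 23.8 and 29.9 CPM in Sham, 26.3, 25.6 and 24.7 CPM in BCAS, log2 fold change -0.03) while Rps4x rose. Paralogs known from muscle or testis were near or below detection. Rpl3l had 10 to 12 counts in Sham and 5 to 12 in BCAS, Rpl10l had 0 counts in every library, and Rpl39l had 2, 0 and 9 counts in Sham and 14, 6 and 0 in BCAS. With a count of 0, a level of up to 0.0875 to 0.0995 CPM (3 counts) remains possible, counting error only.

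**Figure D4:**
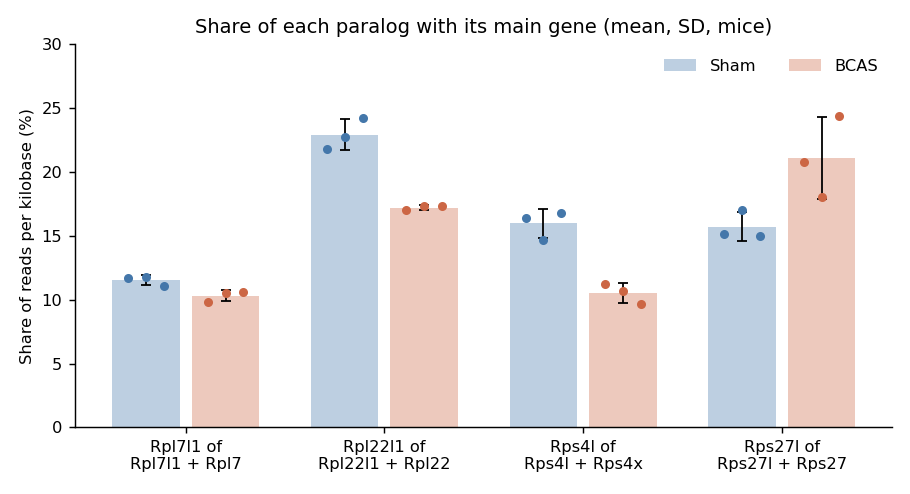
Share of reads per kilobase of exon taken by 4 paralogs within the pair of paralog and main gene, in percent, with 1 point per mouse, the mean as a bar and the SD as a line. The share of Rpl22l1, Rps4l and Rpl7l1 is lower in all BCAS mice, and that of Rps27l is higher (15.7% against 21.1% on average).

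Rps27a, which encodes a fusion of ubiquitin and an RP, varied widely within each group. It had 44.4, 149 and 160 CPM in Sham and 146, 58.0 and 169 CPM in BCAS. A low mouse, Sham 1 and BCAS 2, was present in each group, and the standard error of its log2 fold change was 0.48. The processed pseudogene Gm8430, which holds 37.3% of the 100-base stretches of the Rps27a transcripts and was chosen after its values were seen, was high where Rps27a was low. It had 9.65, 1.95 and 1.63 CPM in Sham and 5.26, 12.2 and 3.98 CPM in BCAS, so Sham 1 and BCAS 2 were highest in their groups. Without Rps27a the RP sum was 10782 to 12361 CPM in Sham and 14078 to 15204 CPM in BCAS, and the groups were still apart.

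Reads that fit more than 1 place or more than 1 gene were not counted, which bears on RP genes with their many pseudogenes. Of the 82 protein coding members, 74 shared at least 1 stretch of 100 bases with another annotated gene, with a median of 22.5% of stretches, and 16 shared over 50%. Rpl24, Rps10 and Rpl13a, chosen after their values were seen, had few counts for genes that all cells use, and each overlaps another gene model. Rpl24 had 0.299 to 0.398 CPM in all mice, shares 80.1% of its 100-base stretches with other genes and overlaps the gene model Gm28037 in 47.0% of its exon bases. Rps10 had 2.57 to 3.35 CPM and overlaps a read-through model with Nudt3, and its pseudogene Rps10-ps2 had 38.6 to 44.5 CPM in Sham and 48.9 to 56.4 in BCAS. Rpl13a overlaps Gm45713 in 35.4% of its exon bases, and the levels of these 3 are uncertain. In the 20 coding members that averaged 1 CPM or more and shared at most 10% of stretches, 13 were higher (beside 18.0% of all tested genes) and the median log2 fold change was 0.35. Across the 78 coding members that averaged 1 CPM or more, the log2 fold change had a Pearson correlation of 0.208 with the level, 0.042 with exon length and -0.0142 with the shared percentage; these genes share libraries and are not independent. Of the members, 29 host 56 small nucleolar RNA genes within their bounds, and 20 of these 29 hosts were higher, beside 59.8% of all tested RP genes and 18.0% of all tested genes. Besides Rpl10l and Rpl39l, the genes under the filter on low counts were Rpl32l, with 3 to 10 counts in each library, and Rps12l1, with 0 in all.

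Of 6 RP genes that carry other symbols, 4 were higher in BCAS and 2 with the gene length offset, beside 18.0% and 15.2% of all tested genes. Fau (ENSMUSG00000038274.12, mm10 chr19:6057888-6059524, plus strand), whose product gives the small subunit protein S30, had 122, 149 and 155 CPM in Sham and 220, 226 and 251 CPM in BCAS. Its groups were well apart (log2 fold change 0.71 ± 0.10 SE, edgeR adjusted P = 0.00135). Rack1, a scaffold on the small subunit, rose by 0.57 (0.0024), Rps27rt, a near copy of Rps27 that shares 89.5% of its stretches, by 0.48 (0.0259) and Rps3a1 by 0.27 (0.0345). The Rps27rt call was lost without Sham 1, Sham 2, BCAS 2 or BCAS 3, and the Rps3a1 call without any 1 Sham mouse or BCAS 1, without a filter and with the replicate block, and both with the gene length offset (highest adjusted P over the alternatives listed with the methods 0.0898 and 0.218). Per kilobase, Rps3a1 (353 ± 22.0 CPM in Sham, SD, n = 3) lay at the level of Rps15 and Fau (174 ± 21.6) at that of Rps2. Rpl36al, with 6 to 20 counts, had a log2 fold change of 0.29 (0.733).

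Genes of the mitochondrial ribosome did not share the rise. Of 78 tested mitochondrial ribosomal protein genes, 12 were lower and 0 higher in BCAS (edgeR; 27 lower and 0 higher at an unadjusted P under 0.05; DESeq2 17 and limma-voom 12 lower, 0 higher), with a median log2 fold change of -0.21. These 12 were 15.4% of the list, beside 13.2% of all tested genes, and 6 were lower with library totals (7.69%, beside 9.60%) and 30 with the gene length offset (38.5%, beside 20.4%). The called genes with the largest falls were Mrps33 (-0.55, edgeR adjusted P = 0.00516) and Mrpl57 (-0.45, 0.0112). The sum over the mitochondrial list was 2036.2, 2122.1 and 2246.0 CPM in Sham and 1832.2, 1950.8 and 1772.2 CPM in BCAS, lower in all BCAS mice. Processed pseudogenes of cytosolic RP genes with -ps in their symbol had a median of 0.33, and 9 of 67 tested (13.4%, beside 18.0% of all tested genes) were higher and 0 lower (edgeR; 0 lower also at an unadjusted P under 0.05 and with DESeq2 or limma-voom). The called ones with the largest values were Rpl17-ps5 (0.93) and Rps2-ps10 (0.85). Reads of a pseudogene and its parent can be split by the counting, so these levels are uncertain.

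**Figure D5:**
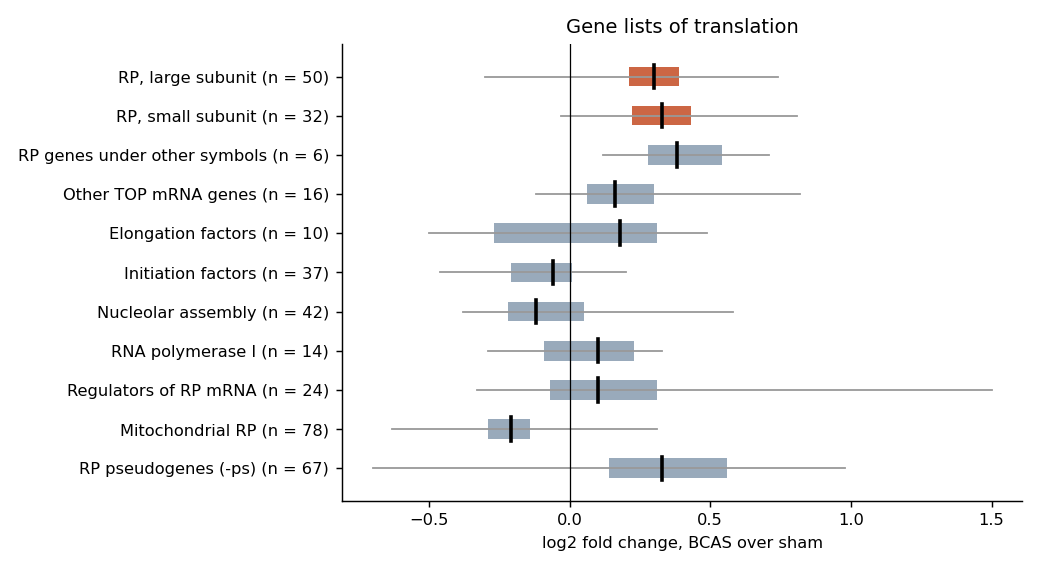
Log2 fold change (BCAS over Sham) of the tested genes in gene lists of translation, with the median as a black mark, the quartiles as a box and the full range as a line. The cytosolic RP lists sit above 0 (medians 0.30 and 0.33), the mitochondrial list below it (-0.21), and the initiation and nucleolar lists near or below it (-0.06 and -0.12).

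Other parts of the translation machinery were mixed. The lists overlap, as Eef1a1, Eef1b2, Eef1d, Eef1g and Eef2 count both as other TOP mRNA genes and as elongation factors. Eif3e, Eif3f, Eif3h and Eif4b count as TOP and initiation genes, and Npm1 as a TOP and nucleolar gene. Of 16 other TOP mRNA genes, 6 (37.5%, beside 18.0% of all tested genes) were higher and 0 lower (edgeR; 8 and 0 at an unadjusted P under 0.05, 6 and 0 with DESeq2 and with limma-voom), with a median of 0.16. With the gene length offset 3 were higher (18.8%, beside 15.2% of all tested genes) and the median was 0.05. Pabpc1, the poly(A) binding protein, had 185, 190 and 200 CPM in Sham and 307, 324 and 382 CPM in BCAS, and Tpt1 went from 407 ± 19.2 CPM (SD, n = 3) in Sham to 707 ± 75.5 CPM (SD, n = 3) in BCAS. Their groups were far apart, with log2 fold changes of 0.82 (edgeR adjusted P = 0.000408) and 0.80 (0.000684). Among 10 elongation factor genes 4 were higher and 2 lower (beside 18.0% and 13.2% of all tested genes), and with the gene length offset 1 was higher and 4 lower (beside 15.2% and 20.4%). Eef1a1, the general form of the factor that brings tRNA, rose by 0.49 (0.0227) and Eef1b2, of its exchange factor, by 0.33 (0.00666), while Eef1a2, the form of mature neurons and muscle, fell by 0.50 on the log2 scale (0.028) and Eif5a2 by 0.34 (0.0126).

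Of 37 initiation factor genes 0 were higher and 6 (16.2%, beside 13.2% of all tested genes) lower (edgeR; 1 and 9 at an unadjusted P under 0.05, 0 and 8 with DESeq2, 0 and 6 with limma-voom), led by Eif4a2 (-0.46, adjusted P = 0.00931) and Eif1b (-0.40, 0.00959). Their median was -0.06, and 0.01 with library totals as the scaling, where 1 was higher and 3 (8.11%, beside 9.60% of all tested genes) lower. With the gene length offset 0 were higher and 13 (35.1%, beside 20.4%) lower. Of 42 nucleolar assembly genes 3 were higher, among them Rrp1b (0.58, 0.00491) and Ddx21 (0.47, 0.00975), and 8 lower, among them Nop10 (-0.38, 0.0357) and Nhp2 (-0.36, 0.0332), both of the complex that makes pseudouridine in rRNA. These were 7.14% and 19.0% of the list, beside 18.0% and 13.2% of all tested genes, and 1 was lower with library totals (2.38%, beside 9.60%) and 15 with the gene length offset (35.7%, beside 20.4%). Of 14 genes of RNA polymerase I, which transcribes rRNA, 0 were higher (edgeR; 3 at an unadjusted P under 0.05, 0 with DESeq2 and limma-voom, 3 with library totals, beside 20.7% of all tested genes) and 1, Rrn3, was lower (-0.29, 0.0163), beside 18.0% and 13.2% of all tested genes. Among 24 regulators of RP mRNA, 5 were higher and 1 lower, 20.8% and 4.17% beside 18.0% and 13.2% of all tested genes. Rps6ka1, a kinase of Rps6, rose by 1.5 (0.000529) and Eif4ebp1, a repressor of cap-dependent initiation under mTOR, by 1.47 (0.00203), while Rheb, the activator of mTOR, fell by 0.33 (0.0226). Myc (0.78, 0.00543) and Trp53 (0.40, 0.0124), chosen after their values were seen, also rose. Of the genes named from these lists, some lost their call when single mice were left out or with the replicate block, the gene length offset or library totals: Eef1a1 under 7 of 17 alternatives, Rpl17-ps5, Nop10 and Nhp2 under 6 each, Eef1a2 under 5, Rheb under 4, Rps2-ps10 under 3, Rrn3 and Trp53 under 2 each and Eef1b2 and Eif5a2 under 1 each (highest adjusted P 0.249, for Eef1a1). Mtor (-0.07, 0.487) and Larp1 (0.07, 0.451) did not pass. The microglia, neuron and astrocyte markers given above moved with these lists too, and their part was not tested.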

How the data were processed

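Whole right hippocampus RNA of 3 Sham and 3 BCAS mice was sequenced as paired-end libraries (NEBNext Ultra RNA kit). According to the paper's methods and the submitters' notes, the authors trimmed reads with Trim Galore, aligned them to mm10 with HISAT2 and counted them with featureCounts (1.6.3 in the notes, 2.0.3 in the file headers, which also name a GENCODE annotation where the methods name RefSeq). The deposited values are raw counts per gene, whole numbers without normalization. Per the file headers, each mate of a pair was 1 count, reads were assigned without regard to strand, and those at several places or on several genes were left out, so counts of genes with close copies are incomplete and sense and antisense reads cannot be told apart. Of 54752 identifiers, 54723 were matched to a symbol.

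Genes were kept by filterByExpr, normalized by TMM and compared by edgeR's quasi-likelihood test on group alone (R 4.3.3, edgeR 4.0.16), with Benjamini-Hochberg adjustment over all 18617 tested genes. The standard error was taken from the fold change and the F statistic. DESeq2 1.42.0 and limma 3.58.1 (voom) were alternatives, with other scalings, filters, halved counts, a gene length offset, a replicate block and leaving out each mouse. P values measure the spread between these mice, and libraries within a group differed by more than sampling noise. The members and lists were chosen with earlier results of these data known. Named with values were, per subunit, the 5 members with the highest mean CPM per kilobase and, at a mean of at least 1 CPM, the 5 largest and 5 smallest log2 fold changes, then the paralogs with their main genes, members under the filter, RP genes under other symbols and, from each other list, up to 2 called genes with the largest rise and fall. Mtor and Larp1 were added to these, and a few genes that the rule names are not reported here. Shared stretches of 100 bases and exon overlap came from GENCODE vM21 transcripts, and promoter sequences from RefSeq (GRCm38.p6). The steps were also run on simulated data. There the spread between mice was the same for every gene and below the common spread estimated here, so that run does not measure their error rate on these data. Behaviour, imaging and qRT-PCR were not analysed here.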

Additional observations from a re-analysis of the deposited data

How the results depend on the processing

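The number of RP genes past the threshold, 49, stayed within 1.5 times that number with the other tools, scalings, filters and halved counts (46 to 66), with the gene length offset (37) and with the replicate block (45, of which 44 were shared). It was 20 with the replicate block together with the gene length offset (12.6% of all tested genes were higher and 14% lower there, 14.9% and 9.4% with the block alone), and 8 with the summed RP counts as library size, which was added after seeing the data. With each mouse left out it was 24 (without Sham 1) to 47. Whether the replicate numbers pair the mice could not be decided. Residual correlations between same-numbered mice were 0.0476, -0.392 and -0.194, and with so few mice per group such values cannot exclude a pairing. The numbers are those of the labels, and the column names of the deposited BCAS counts carry other numbers. With the gene length offset, with or without the block, the RP genes had a median of 0.22, the large subunit 0.20 and the small subunit 0.24, beside -0.082 for all tested genes with the offset. With library totals it was 0.37 for the large subunit.

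With the summed RP counts as library size the medians were -0.03, -0.04 and -0.00, and by its construction genes below the common rise took a negative sign. Among the named genes these were Rplp1 (-0.10), Rpl4 (-0.13), Rpl17 (-0.05), Rpl8 (-0.11), Rpl15 (-0.25), Rpl37 (-0.21), Rpl31 (-0.20), Rps15 (-0.16), Rps2 (-0.13), Rps14 (-0.04), Rps27a (-0.23), Rps21 (-0.18), Rps10 (-0.18), Rpl3 (-0.19), Rpl7l1 (-0.13), Rpl22 (-0.12), Rps27 (-0.04), Rps3a1 (-0.06) and Rpl36al (-0.04), and of these Rpl17, Rps14, Rps27 and Rps3a1 were called on the TMM scale. Called members outside the named genes, such as Rpl28 and Rps19, took a negative sign there too. Elsewhere signs turned in genes that were not called: Rpl15 and Rps27a with the gene length offset (-0.01 each; Rpl15 also with the block, -0.01) and Rps4l with library totals (0.04). With each mouse left out, Rps4l ran from -0.10 to 0.07, Rps27a from -0.31 to 0.41, Rpl3l from -0.45 to 0.08, Rpl36al from -0.06 to 0.71, and the share of Rpl39l changed by -0.13 to 0.714 percentage points. The cause of these changes was not tested. Over the 37 named genes and 664 alternative values, 574 kept their direction and side of the threshold, 47 lost and 14 gained the call, and 29 turned.

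At this depth a count of 0 does not exclude a level of about 0.0995 CPM, and 3 mice per group cannot reach 0.05 in an exact permutation test.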
